A study of Mus musculus with 14 samples.

Results

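Fkbp10 and P3h4 are neighbouring genes on mouse chromosome 11, and both encode proteins of the endoplasmic reticulum that act on newly made collagen. They were taken by symbol from the deposited count table, which held 1 row for each, 2 of 12421 genes in all. The pair had been chosen with earlier results of these data known, because both genes were far higher with doxycycline (Dox) in the evolving tumours. Their values in that comparison are therefore given as a description, with no test. The other comparisons are taken as not used in the choice, but their results may also have been seen when it was made.

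Collagen chains are hydroxylated, folded and checked inside the endoplasmic reticulum before they are secreted. Fkbp10 encodes FKBP65, a prolyl isomerase and chaperone for type I collagen and elastin, and its loss in humans causes brittle bones and joint contractures. P3h4 encodes SC65, a member of the prolyl hydroxylase family without enzyme activity of its own, which in mice forms a complex with P3h3 and the lysyl hydroxylase Plod1. Both genes are best known from bone, skin and tendon, where fibroblasts and osteoblasts make collagen.

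The samples were T-cell acute lymphoblastic leukaemias (T-ALL) of the mouse VTL model, in which Lmo2, a transcriptional cofactor of blood progenitors, is the inducing oncogene. Per the labels, cryopreserved VTL leukaemia cells were grown in C57BL/6-Rag1-/- mice, which lack T and B cells of their own, and cells carrying both CD45.1 and CD45.2 were sorted from the spleen. The groups were 3 independent tumours (VTL-81, VTL-44 and VTL-33) and 3 evolving tumours (VTL-25, VTL-153 and VTL-21), each with 1 library from a mouse given Dox in food at 600 mg/kg and 1 from a mouse without Dox, and 2 dependent tumours (VTL-24 and VTL-19) without Dox. The class names describe each tumour's relation to Lmo2. The labels give no promoter for the Lmo2 transgene, no age of the animals and no direction in which Dox acts. Per the labels, a tumour number marks libraries of 1 leukaemia passed on by transplantation.

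The 14 libraries held 18214415 to 24048281 counts. Levels are CPM, counts scaled to the library total with TMM factors. All 6 T cell markers were present in every library, with lowest levels of 8.51 CPM (Ptcra) to 903 CPM (Lck). In the evolving tumours Lmo2 stood at 0.198 to 3.24 CPM with Dox and at 303 to 708 CPM without it, and it was lower with Dox in each independent tumour as well. VTL-153 and VTL-25 without Dox were hard to tell apart: 3 genes exceeded 20 CPM in either one while staying under 0.5 CPM in its counterpart, whereas other tumour pairs had 21 to 130 such genes.

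The leading T cell receptor beta segment, a mark of the clone, was the same in both libraries of VTL-44 (Trbv19), VTL-33, VTL-153 and VTL-21 (Trbv24) and VTL-81 (Trbv2). In VTL-25 it was Trbv5 with Dox, at 270.0 CPM, and Trbv24 without Dox, at 238 CPM, so its libraries went against being 1 clone. In VTL-21 the next segment was Trbv13-2 with Dox and Trbv13-1 without Dox. All 3 evolving tumours without Dox shared Trbv24 and Trbv13-1 as their leading segments. Whether these 3 libraries are related clones was not tested. The fitted changes with Dox of the pair, Jup, Nt5c3b, P3h3 and Col1a2 in the evolving tumours are given without VTL-25 as well, whereas means over the evolving tumours include it.

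On mm10 (GRCm38), P3h4 (ENSMUSG00000006931) lies on the minus strand at chromosome 11, 100408456 to 100414836, and Fkbp10 (ENSMUSG00000001555) on the plus strand at 100415697 to 100424824. The genes point away from each other, and 860 bases separate their annotated starts. They share 0 exonic bases. The far end of Fkbp10 overlaps Nt5c3b, which runs on the minus strand, over 193 exonic bases, 6.58% of the exonic length of Fkbp10. The strand setting of the counting was not given in the sources used here, so reads in that stretch cannot be assigned to either gene with certainty. In VTL-24 and VTL-19, however, Nt5c3b had 1692 and 1224 counts and Fkbp10 had 0, so Nt5c3b reads were not counted for Fkbp10 there.

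Both genes were low in the dependent and evolving tumours without Dox and higher in all other libraries. Fkbp10 stood at 7.08 CPM with Dox against 0.35 CPM without Dox in VTL-153, at 22.7 against 0.401 CPM in VTL-25 and at 37.4 against 0.0449 CPM in VTL-21. P3h4 stood at 60.0 CPM with Dox against 2.30 CPM without Dox in VTL-153, at 55.1 against 1.44 CPM in VTL-25 and at 70.0 against 0.135 CPM in VTL-21. In neither gene did the 3 evolving libraries with Dox overlap the 3 without, a separation that 8.74% of all genes showed upwards. In sorted cells measured in bulk, a larger share of expressing cells and more RNA per cell cannot be told apart.

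The evolving tumours with Dox differed more among themselves in Fkbp10 than in P3h4. Fkbp10 averaged 22.4 ± 15.1 CPM with Dox and 0.265 ± 0.192 CPM without Dox (SD, n = 3 each). P3h4 averaged 61.7 ± 7.59 CPM with Dox and 1.29 ± 1.09 CPM without Dox. VTL-21, the evolving tumour with the least of both genes without Dox, had the most of both with Dox. VTL-153 had the least Fkbp10 with Dox but more P3h4 than VTL-25.

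The rise of Fkbp10 with Dox was 20.2-fold in VTL-153 (95% exact counting interval 9.56 to 51.3), 56.6-fold in VTL-25 (30.5 to 119) and 832-fold in VTL-21 (149 to 32900). That of P3h4 was 26.1-fold (19.4 to 35.8), 38.2-fold (27.4 to 54.8) and 519-fold (177 to 2520) in the same tumours. The intervals cover counting error between 2 libraries only, and the widths for VTL-21 come from its 1 count of Fkbp10 and 3 counts of P3h4 without Dox. Because the libraries of VTL-25 differed in their leading receptor segment, its folds may not be changes within 1 clone. Within each evolving tumour the intervals of the 2 genes overlapped. Fitted over the class, the log2 change was 6.15 (SE 0.99) for Fkbp10 and 5.86 (SE 0.81) for P3h4, and without VTL-25 it was 6.40 and 6.25. In that comparison edgeR's quasi-likelihood test called 1.10% of all tested genes higher and 1.03% lower with Dox, shares from which nothing is read here because the pair was chosen on it.

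**Figure D1:**
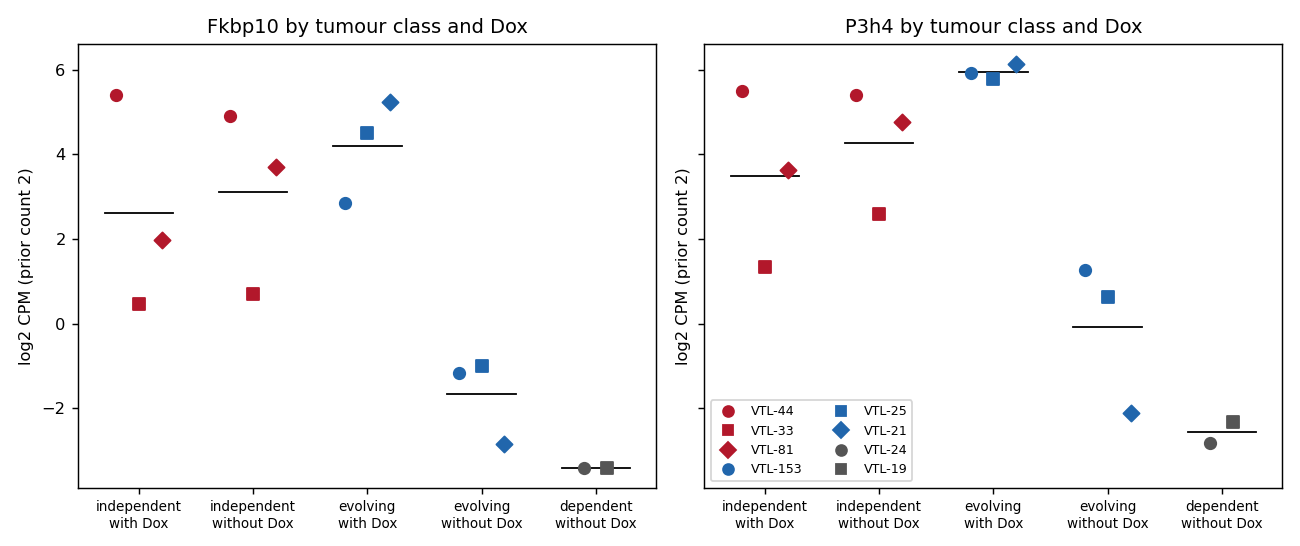
Level of Fkbp10 (left) and P3h4 (right) in each of the 14 libraries, as log2 CPM with a prior count of 2, by tumour class and Dox. Each point is 1 library, shaped by tumour, and the lines are means of the log2 values. Libraries of evolving tumours with Dox lie far above those without, while the independent tumours span a wide range with and without Dox.

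The independent tumours expressed both genes with or without Dox. Fkbp10 stood at 42.3 CPM with Dox against 29.7 CPM without Dox in VTL-44, at 1.28 against 1.52 CPM in VTL-33 and at 3.81 against 13.0 CPM in VTL-81. P3h4 stood at 45.3 CPM with Dox against 42.1 CPM without Dox in VTL-44, at 2.42 against 5.95 CPM in VTL-33 and at 12.3 against 27.2 CPM in VTL-81. VTL-44 had the most of both genes and VTL-33 the least, with Dox and without.

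The independent tumours did not change one way with Dox. In VTL-44 the level with Dox was 1.42 times that without Dox for Fkbp10 (95% exact counting interval 1.28 to 1.58) and 1.07 times for P3h4 (0.978 to 1.18). In VTL-81 it was 0.293 times (0.222 to 0.382) for Fkbp10 and 0.452 times (0.386 to 0.527) for P3h4. In VTL-33 it was 0.841 times (0.496 to 1.42) for Fkbp10 and 0.407 times (0.292 to 0.561) for P3h4. Hence the counts of VTL-81 were lower with Dox beyond counting error in both genes, those of VTL-33 in P3h4 alone, and those of VTL-44 were higher in Fkbp10 alone.

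Neither gene passed the test for a change with Dox in the independent tumours. The log2 change was −0.49 (SE 0.79, edgeR's quasi-likelihood test, adjusted p = 1) for Fkbp10 and −0.77 (SE 0.66, adjusted p = 1) for P3h4, with n = 3 tumours. The estimate for Fkbp10 turned to 0.16 without VTL-81 and to 0.10 with no replicate block for tumour. In this comparison the test called 0 of 12360 genes, 0% of them, with 87 (0.704%) at an unadjusted p under 0.05, and DESeq2 and limma voom also called 0. The spread between tumours was large: the log2 change had an SD of 1.16 for Fkbp10 and 0.77 for P3h4. Whether the response of the pair differed between evolving and independent tumours was not tested, because the evolving tumours chose the pair.

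The dependent tumours held almost no transcripts of either gene. Fkbp10 had 0 counts in VTL-24 and VTL-19, which allows up to 0.0742 CPM at 3 counts over the group. P3h4 had 1 count in VTL-24 and 2 in VTL-19, or 0.0468 and 0.105 CPM. Without Dox, Fkbp10 averaged 14.8 ± 14.2 CPM in the independent tumours (SD, n = 3) and was not detected in the dependent tumours (n = 2). P3h4 averaged 25.1 ± 18.2 CPM in the independent tumours and 0.0759 ± 0.0413 CPM in the dependent tumours.

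Summed over the libraries without Dox, Fkbp10 was at least 190-fold higher in independent than in dependent tumours, taking the same floor, and at least 98.2-fold higher without VTL-44. P3h4 was higher by a factor of 328 (95% exact counting interval 112 to 1590), and by one of 224 without VTL-44. The sums were uneven: VTL-44, VTL-81 and VTL-33 had 599, 302 and 35 counts of Fkbp10 and 849, 630 and 137 of P3h4. These folds thus hold for the sums and are no bound for a single tumour. The lowest independent tumour lay above both dependent tumours in each gene, as it did for 14.4% of all genes. By edgeR's quasi-likelihood test neither difference passed. The log2 difference was 8.28 (SE 1.65, adjusted p = 0.112) for P3h4 and 11.33 (SE 2.34, adjusted p = 0.141) for Fkbp10. The value for Fkbp10 depends on the prior count, since the dependent group is at 0, and is no bound. The test called 0.0972% of genes, 12 of 12348, with 0.0162% higher and 0.081% lower in independent tumours, and 13.2% had an unadjusted p under 0.05. By DESeq2, which called 6.47% of the genes it gave an adjusted p, both passed (adjusted p = 9.33e-08 for P3h4 and 3.41e-06 for Fkbp10), and by limma voom neither did (adjusted p = 0.63 and 0.619). These were the extremes over all alternatives tried.

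Ordered by group mean, Fkbp10 was highest in the evolving tumours with Dox, followed by the independent tumours with Dox (15.8 ± 23.0 CPM) and without Dox. P3h4 had the same first place, followed by the independent tumours without Dox and then with Dox. For Fkbp10 these 3 groups did not differ beyond their SDs. For P3h4 the lowest evolving library with Dox, at 55.1 CPM, lay above the highest independent library, at 45.3 CPM. The evolving tumours without Dox and then the dependent tumours came last in both genes. The gap between these 5 libraries and the other 9 was narrow for P3h4, with 2.42 CPM in VTL-33 with Dox against 2.30 CPM in VTL-153 without Dox. It was wider for Fkbp10, with 1.28 CPM in VTL-33 with Dox against 0.401 CPM in VTL-25 without Dox. The same split of the 9 libraries above the 5 was found for 1.64% of all genes.

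Without Dox, both genes stood in the reverse order of Lmo2 among the independent tumours. VTL-81 lay between VTL-44 and VTL-33, with 27.2 CPM of Lmo2. With Dox the pair followed neither the order of Lmo2 nor its reverse. Lmo2 was then highest in VTL-81, at 8.46 CPM, and the pair in VTL-44. The part of Lmo2 in these levels was not tested. VTL-33 without Dox had 600.0 CPM of Lmo2, within the range of the evolving tumours without Dox, and held 1.52 CPM of Fkbp10 and 5.95 CPM of P3h4. With Dox its Lmo2 stood at 1.32 CPM, and its Fkbp10 and P3h4 were then at 1.28 and 2.42 CPM. VTL-44, with 4.09 CPM of Lmo2 with Dox and 9.28 CPM without, had the highest levels of the pair in its class.

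The question of whether the genes move together was asked in each tumour. The direction of the change with Dox was the same for Fkbp10 and P3h4 in 6 of 6 tumours: both were higher in VTL-153, VTL-25, VTL-21 and VTL-44 and both lower in VTL-33 and VTL-81. For the 3 evolving tumours this follows from the choice of the pair, and in VTL-44 (P3h4) and VTL-33 (Fkbp10) the counting interval of 1 of the 2 changes included no change. The 2 libraries of VTL-25 differed in their leading receptor segment, so its change may not be one within 1 clone. The log2 change of P3h4 minus that of Fkbp10 was 0.37 in VTL-153, −0.57 in VTL-25 and −0.68 in VTL-21. It was −0.40 in VTL-44, −1.05 in VTL-33 and 0.63 in VTL-81. In the independent tumours these gaps were of the order of the changes themselves, which spanned −1.77 to 0.51. In the evolving tumours, which chose the pair, the changes spanned 4.34 to 9.70.

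**Figure D2:**
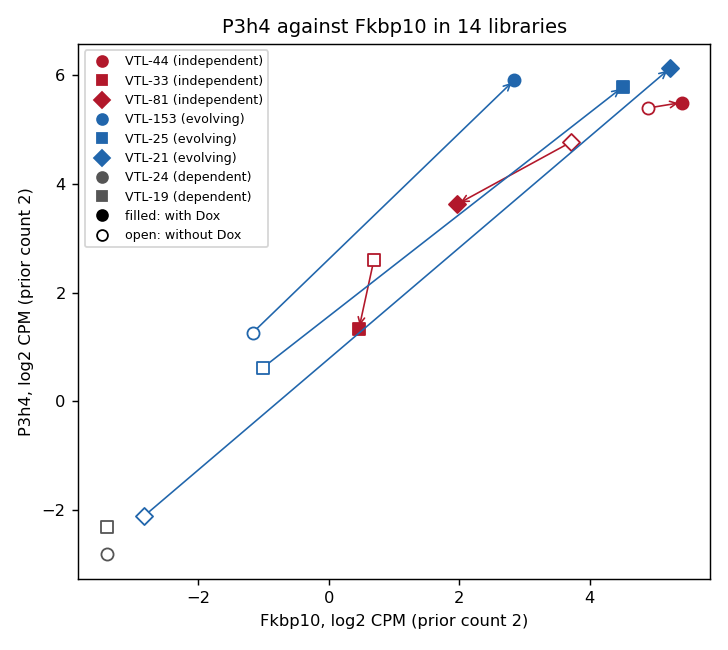
P3h4 against Fkbp10 in the 14 libraries, both as log2 CPM with a prior count of 2. Filled points are libraries with Dox and open points libraries without, and an arrow joins the 2 libraries of a tumour from without to with Dox. All 6 arrows run up and right or down and left, along a band in which P3h4 rises with Fkbp10.

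Across the 8 tumours without Dox, 1 library each, the log2 CPM of the genes correlated with Pearson's r = 0.977 (exact permutation p = 9.92e-05, two-sided) and Spearman's rho = 0.97 (exact permutation p = 0.000595). The p-values of this relation, and those of the tests of the genes' proportion given below, were not adjusted over a family. Without VTL-44 and VTL-81, the 2 tumours farthest from the median of Fkbp10, r was 0.98 (n = 6, exact permutation p = 0.00556). With each tumour left out in turn r was 0.97 to 0.988. The 3 evolving tumours among the 8 were also used in choosing the pair, and VTL-153 and VTL-25 resemble each other, so that fewer than 8 tumours were independent. The permutations also swapped tumours across classes, so a class difference shared by both genes makes p small. These p-values therefore cannot decide whether the genes move together within a class, and nothing is concluded from them. Over the 5 dependent and independent tumours alone r was 0.99, given as a description with no p. The classes lie far apart there, with P3h4 at a log2 CPM of −2.82 and −2.32 in the dependent tumours and 2.60 to 5.40 in the independent tumours. This r therefore cannot show whether the genes move together within a class either.

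Over all 14 libraries r between the genes was 0.97, as a description, since libraries of a tumour are not independent and 6 of the 14 are the evolving libraries on which both genes were chosen. By this measure P3h4 ranked 1 of 12420 genes for likeness to Fkbp10, and Fkbp10 ranked 1 for likeness to P3h4. Among the 630 gene pairs of the table that point away from each other with starts within 1 kb, r had a median of 0.297, with quartiles of 0.0237 and 0.568. Fkbp10 and P3h4 ranked 2 among them. The choice of the pair raises both ranks, so they are no support for the genes moving together.

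Their proportion was not fixed, however. P3h4 gave 51.7% of the summed counts of the 2 genes in VTL-44 with Dox (95% exact Clopper-Pearson interval 49.4 to 54.1%) and 89.4% in VTL-153 with Dox (87.7 to 91.0%). VTL-25 and VTL-21 with Dox lay between, at 70.8% (68.5 to 73.1%) and 65.2% (63.1 to 67.2%). These intervals do not overlap, so the evolving tumours with Dox differed from one another in proportion beyond counting error. Per kilobase of exon, the P3h4 level with Dox was 11.4 times the Fkbp10 level in VTL-153, 3.27 times in VTL-25 and 2.52 times in VTL-21. It was 1.44 times in VTL-44, 2.56 times in VTL-33 and 4.34 times in VTL-81 with Dox.

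The proportion also differed between the libraries with and without Dox of the independent tumours, and not one way. P3h4 held 76.3% of the pair's counts with Dox (71.0 to 81.1%) and 67.6% without Dox (64.5 to 70.6%) in VTL-81. In VTL-44 it held 51.7% with Dox and 58.6% without Dox (56.0 to 61.2%). In VTL-33 it held 65.5% with Dox (54.3 to 75.5%) and 79.7% without Dox (72.9 to 85.4%). The intervals overlapped in VTL-33 and did not in VTL-81 and VTL-44. With 1 library each way, a difference between mice and an effect of Dox cannot be told apart in a tumour. The log2 ratio of P3h4 to Fkbp10, with 0.1 CPM added to each, averaged 0.88 ± 0.78 with Dox and 1.15 ± 0.70 without Dox in these tumours (SD, n = 3 each). The difference of −0.28 had an exact paired permutation p = 0.75, two-sided, where 3 pairs cannot go below 0.25.

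**Figure D3:**
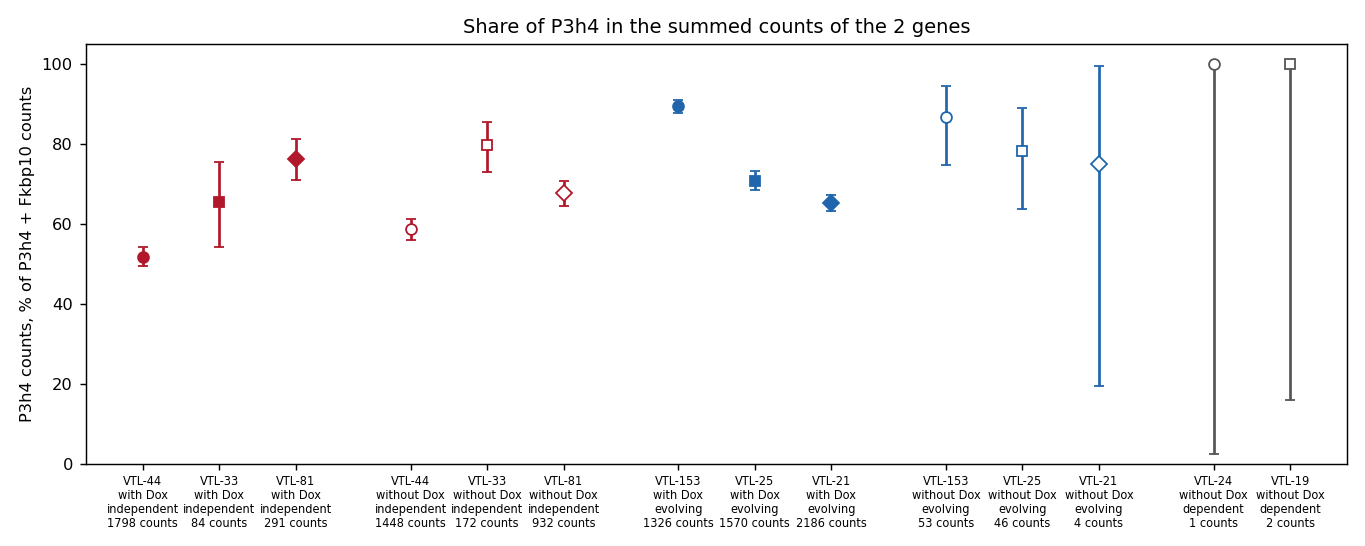
Share of P3h4 in the summed counts of P3h4 and Fkbp10, in percent, for each of the 14 libraries. Bars are 95% exact binomial intervals for counting error, and the summed counts stand under each library. Shares run from 51.7% in VTL-44 with Dox to 89.4% in VTL-153 with Dox among libraries with at least 5 counts, and the dependent tumours have too few counts to place.

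Between independent and dependent tumours without Dox the log2 ratio was 1.15 ± 0.70 (SD, n = 3) and 0.79 ± 0.34 (n = 2). This difference of 0.36 had an exact permutation p = 0.8, two-sided, where 3 against 2 cannot go below 0.2. The dependent value rests on the added 0.1 CPM, because Fkbp10 had 0 counts there.

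Among the neighbours, Jup was the gene most like the pair. Jup (ENSMUSG00000001552), which encodes plakoglobin, a junction protein related to beta-catenin, lies at 100368958 to 100397763 on the minus strand, 10693 bases from P3h4. Its level was 277 CPM with Dox against 8.75 CPM without Dox in VTL-153, 4.46 against 0.681 CPM in VTL-25 and 103 against 0.0899 CPM in VTL-21. All 3 evolving tumours were higher with Dox, VTL-25 by much less than the others.

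Jup stood at 163 CPM with Dox against 185 CPM without Dox in VTL-44, at 14.5 against 20.6 CPM in VTL-33 and at 11.8 against 26.9 CPM in VTL-81. Its level was 0.374 CPM in VTL-24 and 0.788 CPM in VTL-19. As a description over 14 libraries that share tumours, Jup correlated with P3h4 at r = 0.87 and with Fkbp10 at r = 0.838. By edgeR's quasi-likelihood test Jup missed the threshold with Dox in the evolving tumours, where 2.13% of genes were called in either direction (log2 change 5.38, SE 1.09, adjusted p = 0.0664). It passed by DESeq2 (adjusted p = 6.19e-05), by limma voom (0.0145) and without VTL-21 (0.0299), and the other alternatives reached up to 0.275. Without VTL-25 its log2 change was 6.33 (adjusted p = 0.0824 by edgeR). It did not pass in the independent tumours (−0.62, SE 0.80, adjusted p = 1), nor between independent and dependent tumours (7.06, SE 2.19, adjusted p = 0.247), where DESeq2 alone called it (adjusted p = 0.00176, up to 0.63 by limma voom).

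Jup and the pair did not keep one proportion either. With Dox, VTL-153 had the most Jup and the least Fkbp10 of the evolving tumours, and VTL-25 had more Fkbp10 than VTL-153 but far less Jup.

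The 4 other measured genes within 100 kb were expressed in every library. Nt5c3b, a nucleotidase gene that overlaps the end of Fkbp10, was 2.03-fold higher with Dox in VTL-153, 2.11-fold in VTL-25 and 1.65-fold in VTL-21. Fitted together, these gave a log2 change of 0.94 (SE 0.18), which did not pass edgeR's quasi-likelihood test (adjusted p = 0.0559) but passed by DESeq2 (0.000308), by limma voom (0.037) and by edgeR without VTL-81 (0.0411). Without VTL-25 it was 0.87 (adjusted p = 0.228 by edgeR). Klhl11, a kelch-like protein, and Eif1, a translation initiation factor, had log2 changes of 0.44 (SE 0.18, adjusted p = 0.273) and 0.40 (SE 0.16, adjusted p = 0.287). Acly, the enzyme that makes cytosolic acetyl-CoA, had one of −0.11 (SE 0.17, adjusted p = 0.829). The edgeR test called 2.13% of all genes with Dox in evolving tumours, 0% in independent tumours and 0.0972% between independent and dependent tumours. Of the 15 genes measured within 500 kb, 0 passed it in any of these 3 comparisons, near those shares. With Dox in the evolving tumours 6 had an unadjusted p under 0.05, against 16.7% of all genes. DESeq2 called 4 of them, against 10.6% of all genes, and limma voom 3, against 3.45%, Jup and Nt5c3b among them. In the independent tumours each of these counts was 0, and between independent and dependent tumours they were 5, 4 and 0, against 13.2%, 6.47% and 0% of all genes. Their median log2 change with Dox in the evolving tumours was −0.11, against −0.00 over all genes.

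**Figure D4:**
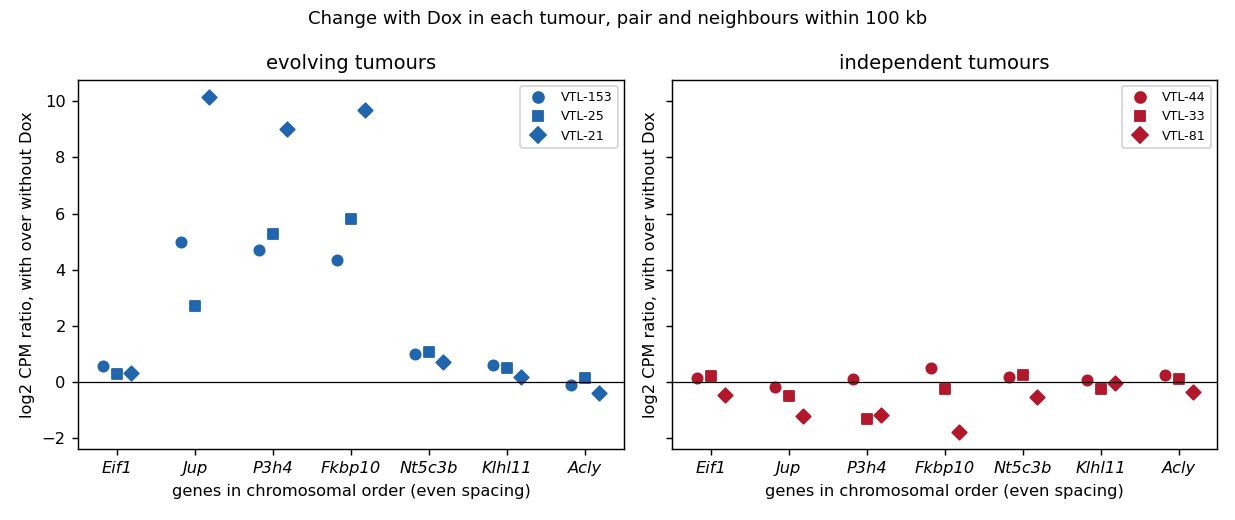
Change with Dox in each evolving (left) and independent (right) tumour for Fkbp10, P3h4 and the 5 measured genes within 100 kb, as the log2 ratio of CPM with over without Dox. Genes stand in chromosomal order with even spacing. The evolving tumours show large rises in Jup, P3h4 and Fkbp10 and values between −0.37 and 1.08 in the other 4 genes.

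Of 25 other genes of collagen maturation 18 were in the table. The edgeR test called 0 of the 18 with Dox in evolving tumours (2.13% of all genes) and in independent tumours (0%). It also called 0 of the 18 between independent and dependent tumours (0.0972%). These counts are near the shares over all genes. With Dox in the evolving tumours 5 had an unadjusted p under 0.05 (16.7% of all genes), and DESeq2 called 3 (P3h3, P4ha1 and Plod1; 10.6% of all genes). Between independent and dependent tumours 2 had such a p (13.2% of all genes), and DESeq2 called 2 (P3h3 and Bmp1; 6.47% of all genes). In the independent tumours both counts were 0, and limma voom called 0 in all 3 comparisons. With Dox in the evolving tumours 9 of the 18 estimates were above 0, and the median log2 change was 0.00, as it was over all genes (−0.00). In the independent tumours the median change was 0.15 (0.01 over all genes), and between independent and dependent tumours without Dox it was 0.15 (0.03 over all genes).

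P3h3, the partner of P3h4 in the lysyl hydroxylase complex, came nearest, with r = 0.701 to the mean of the pair over 14 libraries. In the evolving tumours it averaged 4.10 ± 3.60 CPM with Dox and 0.64 ± 0.406 CPM without Dox (SD, n = 3 each), and was higher with Dox in all 3 (log2 change 2.42, SE 0.55, adjusted p = 0.0808 by edgeR and 0.00167 by DESeq2). Without VTL-25 that change was 2.66 (adjusted p = 0.189 by edgeR). It averaged 12.3 ± 8.24 CPM in independent tumours without Dox and 0.686 ± 0.442 CPM in dependent tumours (log2 difference 4.16, SE 1.02, adjusted p = 0.173 by edgeR and 0.000407 by DESeq2). Plod1, the lysyl hydroxylase of that complex, averaged in the evolving tumours 4.07 ± 3.37 CPM with Dox and 9.21 ± 3.65 CPM without Dox, a log2 change of −1.39 (SE 0.46, adjusted p = 0.192 by edgeR).

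The complex of P3h1, Crtap and Ppib, which hydroxylates prolines of collagen and contains the isomerase cyclophilin B, was present in every library. Over all 14 libraries P3h1 ran from 3.44 to 11.0 CPM, Crtap from 9.77 to 21.5 CPM and Ppib from 127 to 191 CPM. Their log2 changes with Dox in the evolving tumours were −0.61 (SE 0.36), 0.25 (SE 0.33) and 0.20 (SE 0.15), none of which passed. Plod2, a lysyl hydroxylase that FKBP65 is known to assist, averaged in the evolving tumours 5.88 ± 5.65 CPM with Dox and 9.65 ± 7.98 CPM without Dox. It averaged 15.6 ± 4.68 CPM in independent tumours without Dox and stood at 70.2 and 23.5 CPM in dependent tumours (log2 difference −1.58, SE 0.70, adjusted p = 0.394 by edgeR).

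Of the collagen chains, 7 of 15 were in the table, and 1 of them, Col1a2, passed with Dox in the evolving tumours (log2 change 5.75, SE 0.82, adjusted p = 0.0247 by edgeR). Of all tested genes edgeR called 2.13% in this comparison and DESeq2 10.6%. Col1a2 stood at 16.1 CPM with Dox against 0.15 CPM without Dox in VTL-153, at 1.04 against 0.0801 CPM in VTL-25 and at 0.196 against 0 CPM in VTL-21. VTL-21, where the pair was highest, thus had 4 counts of Col1a2 with Dox. The call was lost without VTL-153 (log2 change 3.75, adjusted p = 0.199 by edgeR), without VTL-25 (6.63, adjusted p = 0.0655) and without VTL-44 (0.0591), with no replicate block (0.203) and by limma voom (0.26), while DESeq2 made it (8.13e-09). The partner chain Col1a1, which pairs with Col1a2 in type I collagen, stood at 1.56 ± 2.01 CPM with Dox and 2.86 ± 2.31 CPM without Dox (−1.42, SE 0.55, adjusted p = 0.264 by edgeR). The median log2 change of the 7 chains was 0.81, against −0.00 over all genes. In each of the other comparisons edgeR called 0 of the 7, with 2 at an unadjusted p under 0.05, against 0.704% of all genes with Dox in independent tumours and 13.2% between independent and dependent tumours. Over all genes edgeR called 0% and 0.0972% in these comparisons. DESeq2 called 0 with Dox in independent tumours and 2 between independent and dependent tumours (Col1a2 and Col5a1; 6.47% of all genes). By limma voom 0 were called in both.

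**Figure D5:**
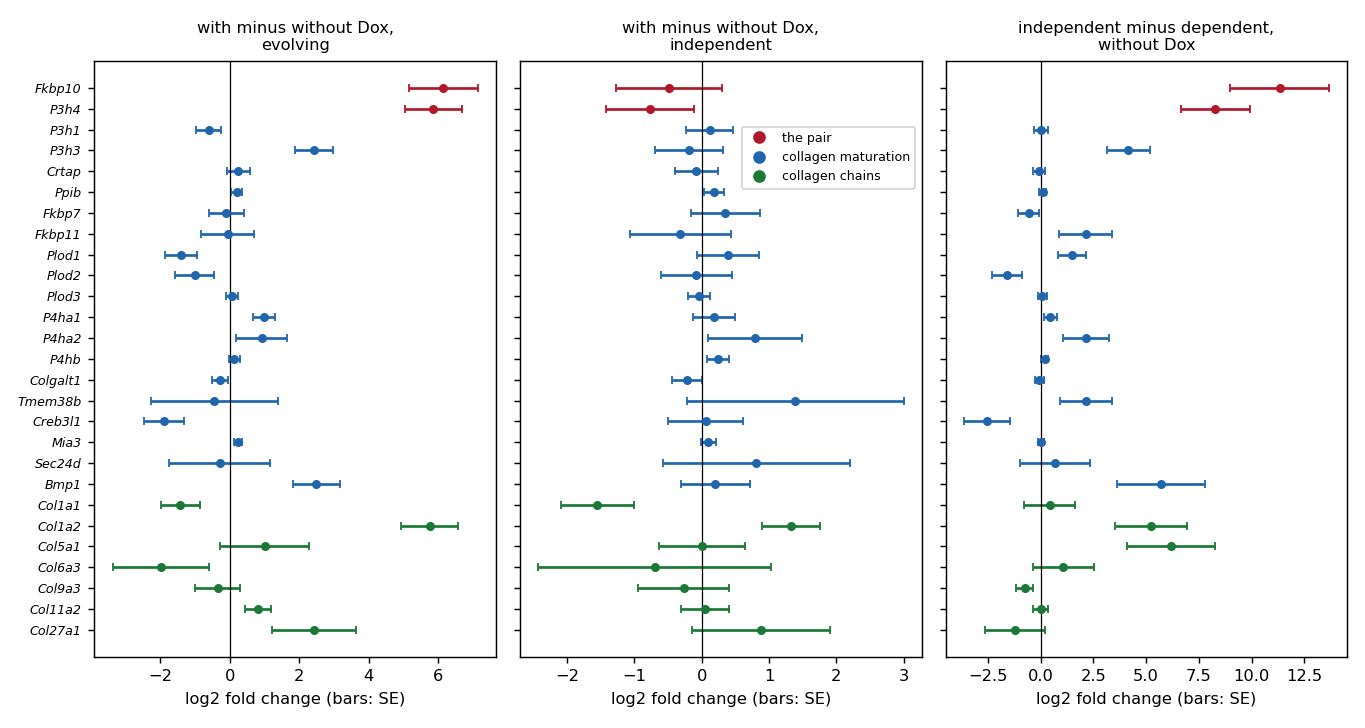
Log2 fold changes with approximate SE (bars) of the pair, 18 genes of collagen maturation and 7 collagen chains, for Dox in evolving tumours (left), Dox in independent tumours (middle) and independent minus dependent tumours without Dox (right). In the left panel Col1a2 at 5.75 lies closest to the pair, and the 18 maturation genes lie between −1.89 and 2.49. The Fkbp10 value on the right depends on the prior count because the dependent tumours had 0 counts.

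Markers of other cells were compared with the pair, library by library. Of 10 fibroblast markers 4 were in the table: Pdgfrb, Col1a2, Fn1 and Col1a1. Their median levels were 87.3, 6.33, 5.0 and 3.24 CPM in that order, so the sum weighs Pdgfrb most. These markers summed to 230 to 865 CPM with Dox and 144 to 515 CPM without Dox in the independent tumours. In the evolving tumours they summed to 18.4 to 108 CPM with Dox and 21.9 to 56.6 CPM without Dox, and the sums were 5.52 and 33.9 CPM in the dependent tumours. Over the 14 libraries the log2 sum of these markers correlated with the pair at r = 0.514, the highest among the 7 marker lists, whose lowest was 0.275 for plasma cells. Their part in the levels of the pair was not tested. The fibroblast markers Dcn, Lum, Pdgfra, Col3a1, Postn and Bgn were not found by symbol in the count table, whose filter is not given, and so were not analysed.

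B cell markers (2 of 6) summed to 188 CPM with Dox against 141 CPM without Dox in VTL-153, to 683 against 110.0 CPM in VTL-25 and to 6280.0 against 238 CPM in VTL-21. Plasma cell markers (3 of 6, Sdc1 among them) summed in the evolving tumours to 192 to 741 CPM with Dox, against 98.3 to 159 CPM without Dox. Erythroid markers (5 of 6) summed to 152 CPM in VTL-21 with Dox and to 0.405 and 7.83 CPM in VTL-153 and VTL-25 with Dox, against 3.25 to 8.21 CPM without Dox. Myeloid markers (7 of 7) were lower with Dox in VTL-153 and VTL-25, at 19.0 and 22.9 CPM against 144 and 195 CPM without Dox, and higher in VTL-21, at 159 against 13.3 CPM. In the independent tumours the myeloid sums were 155 to 1740 CPM with Dox and 60.5 to 1340 CPM without Dox, against 27.3 and 82.0 CPM in the dependent tumours. The B cell sums were 29.1 to 726 CPM with Dox and 78.9 to 780 CPM without Dox in independent tumours, against 54.2 and 177 CPM in dependent tumours. Endothelial markers (2 of 6) ran from 130 to 174 CPM over all libraries. The B cell sum held Ighm, at up to 6270 CPM over the libraries, and Cd79b, at up to 28.9 CPM. The B cell and plasma cell sums were thus higher with Dox in all 3 evolving tumours, as the pair was. Over the 14 libraries, with all classes pooled, their r to the pair was 0.319 and 0.275, the lowest of the 7 lists. The part of these cells in the result was not tested. Among the 3 evolving libraries with Dox, Fkbp10 stood in the order of the B cell sums, lowest in VTL-153 and highest in VTL-21, and P3h4 was lowest in VTL-25 and highest in VTL-21.

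Finally, the genes with levels most like the mean of the pair over the 14 libraries were Aff1 (r = 0.937), Amica1 (0.93), Iltifb (0.921), Ace (0.911) and Gtf2h4 (0.909), and 8 genes in all reached an r of 0.9. Aff1, an elongation factor gene, ran over a narrow range, from 274 to 454 CPM in evolving tumours with Dox, against 110 to 177 CPM without Dox. Amica1, an adhesion receptor of leukocytes, had 36.0 to 59.0 CPM in evolving tumours with Dox, against 1.30 to 6.60 CPM without Dox. Ace, the angiotensin-converting enzyme, had 227 to 260.0 CPM with Dox, against 5.66 to 106 CPM without Dox, and like the pair lies on chromosome 11. Iltifb, a cytokine gene with a near-identical copy in Il22 so that its counts are uncertain, had 29.0 to 86.8 CPM with Dox, against 0 to 2.05 CPM without Dox.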

How the data were processed

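STAR 2.5.2b, featureCounts and the build mm10 are named in the submitters' processing notes. Annotation, strand setting and low-value filter were not given in the sources used here. The deposited values used were raw counts of 14 libraries, not normalised by the authors. The table's 42 other per-sample columns and the authors' 6 comparison columns were not used. Every listed gene reached 1 CPM in at least 2 libraries. Gene positions and exon lengths came from GENCODE M21 (12379 of 12421 identifiers matched).

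The tests were run in R 4.3.3 with edgeR 4.0.16 (TMM factors, minimum count 10, robust quasi-likelihood fits, Benjamini-Hochberg adjustment over all genes, threshold 0.05). For Dox, 12 libraries of 6 tumours entered 1 fit, blocked by tumour, with separate Dox terms for the classes. For independent against dependent tumours the 8 libraries without Dox were fitted by class. SE is approximate, the size of the log2 change over the root of F. Alternatives were RLE factors, DESeq2 1.42.0, limma voom 3.58.1, a minimum count of 50 or no filter, non-robust fits, no replicate block, and each tumour left out. The fits were also run on simulated counts, with no tumour effect and changes set in well-covered genes only. That run does not cover the very low counts of the pair. Exact tests used scipy 1.17.1. Intervals and floors (3 counts) cover counting error only.

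Tumour numbers in the titles pair the libraries. Partners' deviations from their group means correlated, across genes, at 0.563 to 0.716 in independent and 0.0166 to 0.188 in evolving tumours. Separate cultures or animals within a tumour were not replicated, so p-values measure the spread between tumours. Members and lists were chosen with earlier results of these data known. Named were the pair, Lmo2, genes within 100 kb, listed collagen genes that passed or work directly with the pair, and the 5 genes most like the pair. The receptor segments and the list members named as called by DESeq2 were added after their values were seen.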

Additional observations from a re-analysis of the deposited data

How the results depend on the processing

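Both genes kept their direction in the evolving tumours with Dox and between independent and dependent tumours under every alternative run. With each tumour left out in turn, the log2 change with Dox in evolving tumours was 5.09 to 7.07 for Fkbp10 and 4.95 to 6.59 for P3h4. For independent against dependent tumours it was 10.32 to 11.85 and 7.68 to 8.90, and by DESeq2, where both passed, 10.65 and 8.37. With Dox in independent tumours it was −1.04 to 0.16 for Fkbp10, positive without VTL-81, and −1.22 to −0.52 for P3h4. With no replicate block the Fkbp10 value was 0.10. The cause of these changes of sign was not tested. The blocked and unblocked fits changed no other direction of the pair.

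Genes called with Dox in evolving tumours numbered 263, against 73 with no replicate block, 426 by limma voom, 1314 by DESeq2, and 49 to 347 with a tumour left out (162 without VTL-81, 142 without VTL-44, 128 without VTL-33, 110 without VTL-153 and 49 without VTL-25). For independent against dependent tumours 12 were called, against 791 by DESeq2, 0 by limma voom, and 2 to 73 with a tumour left out (2 without VTL-153, 5 without VTL-25, 23 without VTL-81 and 73 without VTL-44). Mean CPM of the pair moved by less than the SD with other scalings. Counts of 0 to 3 in dependent tumours and in VTL-21 without Dox limit every fold that rests on them. With 1 dependent tumour left out, the other is assumed to vary like the other classes.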

Other observations

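At the far end of the 500 kb window, 3 signalling genes ran against the pair. These were named after their values were seen. Stat5a, 434527 bases from the pair, correlated with its mean at r = −0.856 over 14 libraries, Stat3 at −0.73 and Stat5b at −0.634. They encode transcription factors of cytokine signalling. With Dox in the evolving tumours their log2 changes were −0.95 (SE 0.21), −0.87 (SE 0.23) and −0.32 (SE 0.15), with adjusted p of 0.0759, 0.122 and 0.368 by edgeR. Between independent and dependent tumours without Dox the differences were −1.27 (SE 0.21), −0.91 (SE 0.16) and −0.73 (SE 0.20), with adjusted p of 0.0684, 0.0782 and 0.195 by edgeR. None passed by edgeR, whereas DESeq2 called Stat5a and Stat3 in both comparisons and Stat5b between the classes, and limma voom called Stat5a with Dox. The 4 genes with the smallest r in size within the window (Acly, Rab5c, Kat2a and Dnajc7) lie between them and the pair.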
